A study of Rattus norvegicus with 6 samples.

Results

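The genes described here encode keratins, desmosome proteins and components of the cornified envelope, with 2 transcription factors that control them, Klf4 and Tp63. They were taken by gene symbol alone: every probe set annotated with exactly 1 symbol that is a numbered keratin (Krt), Sprr, desmoglein (Dsg), desmocollin (Dsc) or plakophilin (Pkp) gene, or one of Spink5, Ivl, Lor, Tgm1, Tgm3, Evpl, Ppl, Dsp, Jup, Cnfn, Klf4 and Tp63. That gave 53 probe sets for 46 genes, out of 31042 probe sets tested and 14217 genes with a single symbol. A probe set is a group of short oligonucleotides on the array that reads the 3' part of a transcript. Lor itself was not matched, because the annotation carries that gene as Loricrin.

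LN4D6 is a line of rat mammary tumour cells, and its total RNA was hybridised to 6 arrays. In the CREB3L1 group (3 arrays) the cells were transfected with CREB3L1, a transcription factor of the endoplasmic reticulum membrane that is released by cleavage. In the untransfected group (3 arrays) they were not transfected, so an effect of transfection itself cannot be told apart from that of CREB3L1. The labels state neither the vector, nor whether the transfected cells are 1 clone. They do not mention separate cultures either, so the p-values rest on a spread between samples that may be technical. The rat Creb3l1 probe set read 3.39 ± 0.03 in CREB3L1 cells and 3.36 ± 0.02 in untransfected cells (SD, n = 3 each), and the labels do not say whether it can read the construct.

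Keratins are the intermediate filament proteins of epithelia and assemble as pairs of an acidic type I and a basic type II chain. Desmosomes anchor these filaments at cell contacts: desmogleins and desmocollins bridge the gap between cells, and plakoglobin, plakophilins and desmoplakin link them to keratin. In the outer epidermis, transglutaminases cross-link involucrin, loricrin, small proline-rich proteins, envoplakin and periplakin into the cornified envelope, while protease inhibitors hold back the enzymes that shed the surface. In the mammary gland, Krt5 and Krt14 mark basal cells and Krt8 with Krt18 the luminal cells.

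Values are the authors' log2 RMA expression values, on which 1 unit is a doubling of signal. Differences are CREB3L1 minus untransfected with the standard error, and p-values are limma's, two-sided, with Benjamini-Hochberg adjustment over all 31042 probe sets. A gene is said to rise or fall where the adjusted p is below 0.05. A log2 value of 5 serves as the background level. Both the median over all genes (-0.01) and that over the 46 member genes (0.00) lay close to no difference.

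CREB3L1 replicate 3 stood apart from the other arrays, with correlations to them of 0.984 to 0.989, where the other 5 correlated at 0.996 to 0.999. For Gapdh, whose 3' and 5' ends are read separately as a measure of RNA quality and labelling, the 3' end was 4.77 higher on that array, against -0.16 to -0.10 on the rest. Of the 24 member probe sets at or above the background level, 17 lay outside the range of the other 5 arrays on CREB3L1 replicate 3 (70.8%), close to the 71% of all 12072 such probe sets. Groups that do not overlap are common: among those 12072 probe sets, every CREB3L1 value was above every untransfected one for 13.8% and below for 15.7%. Among the 24 member probe sets this held for 3 above (12.5%) and 7 below (29.2%), and the 7 include all 3 Spink5 probe sets. Results are given with all 6 arrays and, for part of the genes, also without CREB3L1 replicate 3. A difference given alone rests on all 6 arrays and so includes that array.

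Of the 53 member probe sets, 1 rose and 5 fell. Over all probe sets, 0.425% rose and 0.963% fell. Without CREB3L1 replicate 3, 2 members rose and 5 fell, against 1.54% and 2.44% of all probe sets. At an unadjusted p below 0.05, 3 members were higher and 7 lower, against 4.17% and 5.49% of all probe sets. By gene, Sprr1a rose, Sprr1b, Dsc2 and Spink5 fell, and the other 42 did not pass the test. With so few calls over the whole array, a small group without one does not stand apart from the rest. Dsc2 belongs to the cell surface bridge, Sprr1a and Sprr1b to the envelope, and Spink5 to the control of proteases. Dsc2 and Spink5 were the only genes of their roles at or above background, and no role was tested as a group. In RNA from a whole culture, fewer cells of a type and less RNA per cell cannot be told apart.

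**Figure D1:**
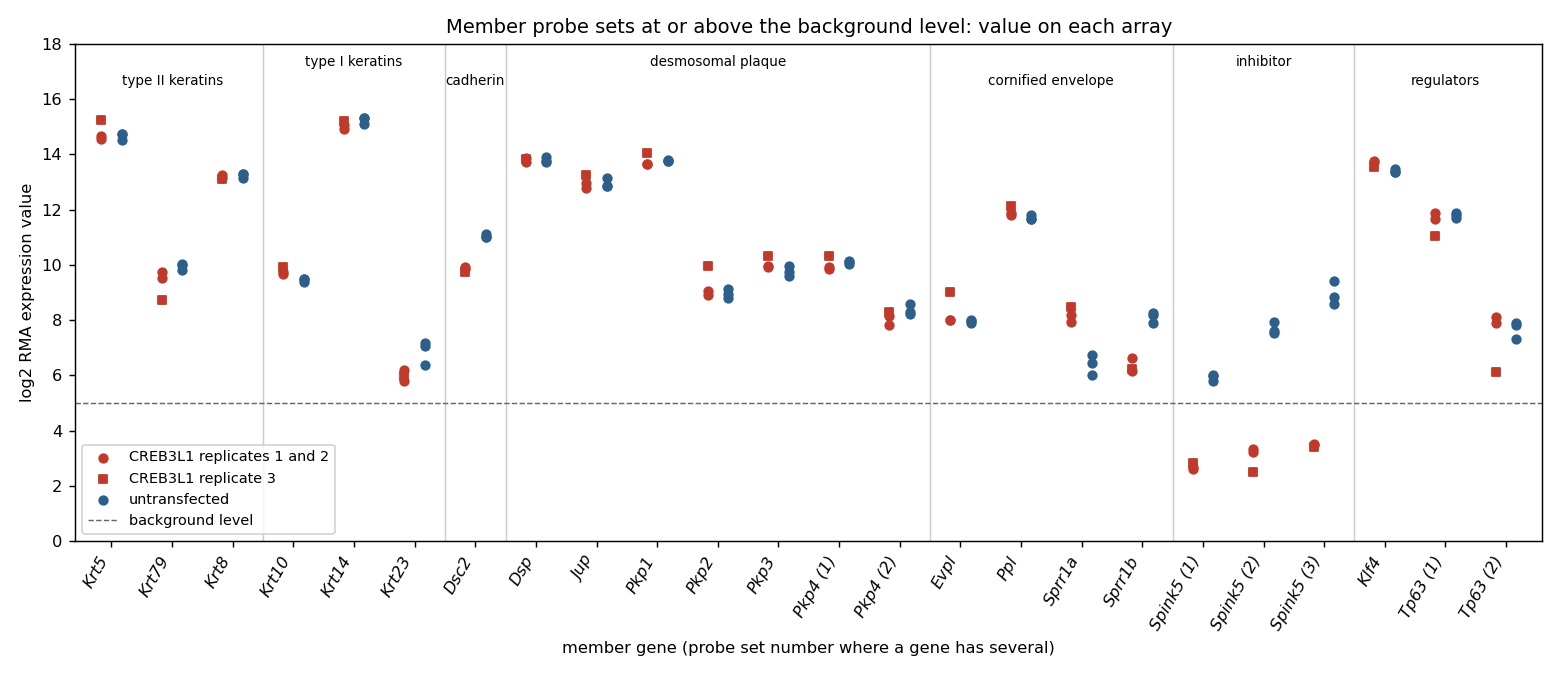
Log2 expression value (vertical axis) on each array for the 24 member probe sets at or above the background level of 5, ordered by role; red points are CREB3L1 arrays, with replicate 3 as a square, and blue points are untransfected arrays. The groups stand clearly apart for Dsc2, Sprr1a, Sprr1b and Spink5, while for Krt5, Evpl, Pkp2 and Tp63 the CREB3L1 replicate 3 square lies away from all other points.

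Among the keratins, 3 of 10 type II genes (Krt5, Krt8 and Krt79) and 3 of 13 type I genes (Krt14, Krt10 and Krt23) were at or above the background level. No member keratin passed the limma test, and Krt6c, outside the selection, is described below. At an unadjusted p below 0.05 the counts were 0 type II probe sets, and 1 higher and 2 lower type I probe sets, against 4.17% higher and 5.49% lower of all probe sets. The basal pair was read in both groups. Krt14 had 15.08, 14.93 and 15.22 in CREB3L1 cells, against 15.31, 15.10 and 15.33 in untransfected cells. Krt5 had 14.65, 14.55 and 15.24 in CREB3L1 cells, against 14.74, 14.53 and 14.73 in untransfected cells. The groups overlapped for both genes. The difference was -0.17 ± 0.10 for Krt14 (95% interval -0.42 to 0.08) and 0.14 ± 0.20 for Krt5 (-0.35 to 0.64). Without CREB3L1 replicate 3, which held the highest Krt5 value, Krt5 gave -0.07 ± 0.08.

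Krt8, the type II keratin of simple epithelia, had 13.25, 13.15 and 13.10 in CREB3L1 cells, against 13.28, 13.16 and 13.28 in untransfected cells, with a difference of -0.08 ± 0.06 (95% interval -0.22 to 0.07). The probe set of its usual partner Krt18 lay below the background level on all arrays. A value below that level can come from a probe set that reads its transcript poorly and does not show that the gene is silent.

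The remaining keratins above background showed small or uneven differences. Krt10, a type I keratin of differentiating epidermis, had 9.67, 9.76 and 9.91 in CREB3L1 cells, against 9.38, 9.49 and 9.50 in untransfected cells. The groups did not overlap, as for 13.8% of all probe sets above background in this direction, and the difference of 0.32 ± 0.07 did not pass the test (adjusted p = 0.175). Krt23 had 6.19, 5.80 and 5.99 in CREB3L1 cells, against 7.08, 7.18 and 6.36 in untransfected cells, a difference of -0.88 ± 0.24 (adjusted p = 0.268). Every CREB3L1 value of Krt23 was below every untransfected one, as for 15.7% of all probe sets above background, with untransfected replicate 3 the nearest. Krt79, a type II keratin known from hair follicle and sebaceous ducts in mouse, had 9.74, 9.51 and 8.72 in CREB3L1 cells, against 9.99, 10.05 and 9.82 in untransfected cells. Its groups did not overlap either, and its lowest value was on CREB3L1 replicate 3. The difference of -0.63 ± 0.28 (adjusted p = 0.590) was -0.33 ± 0.10 without that array (adjusted p = 0.201).

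The other 7 type II keratins (Krt1, Krt4, Krt7, Krt71, Krt78, Krt86 and Krt90) and 10 type I keratins (Krt12, Krt13, Krt15, Krt17, Krt18, Krt19, Krt20, Krt24, Krt25 and Krt36) were below background in both groups. They include Krt1, the epidermal partner of Krt10, Krt4 and Krt13, the pair of internal stratified epithelia, and Krt71, Krt25, Krt36 and Krt86 of the hair follicle. Krt7 came nearest to the level, at 4.27 ± 0.39 in CREB3L1 cells and 3.96 ± 0.14 in untransfected cells.

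Krt6c lies outside the selection because its symbol ends in a letter, and it was chosen for mention after its values were seen. One of its probe sets had 12.66, 12.64 and 12.67 in CREB3L1 cells, against 13.09, 13.13 and 13.28 in untransfected cells, and fell by 0.51 ± 0.06 (adjusted p = 0.0216). A second gave -0.39 ± 0.10 (adjusted p = 0.222), and the other one was below background in both groups. The Krt6 genes are near-identical copies, and the suffix of the first probe set marks it as reading several transcripts, so the call cannot be given to Krt6c alone. It was lost without CREB3L1 replicate 1 (0.104) or 2 (0.111) and without untransfected replicate 1 (0.0670) or 2 (0.102), and without moderation of the variances (0.114).

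Of the 4 desmosomal cadherin genes with a probe set in the selection, only Dsc2 was at or above background. No probe set in the selection carried the symbol Dsc3 or Dsg3, so those cadherins are not covered here. Whether a probe set without a symbol reads them was not tested. Dsc2 encodes desmocollin 2, the desmocollin found in most epithelia and in heart muscle. It had 9.850, 9.943 and 9.765 in CREB3L1 cells, against 10.998, 11.002 and 11.126 in untransfected cells. Every CREB3L1 value lay more than 1 unit below every untransfected one, and CREB3L1 replicate 3 was close to the other CREB3L1 arrays. Dsc2 fell by 1.19 ± 0.06, which is 2.28-fold (adjusted p = 0.00267), and by 1.15 ± 0.06 without CREB3L1 replicate 3 (adjusted p = 0.00211). Its call held in all 13 alternatives, with adjusted p-values of 5.60e-04 to 0.0346.

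The other desmosomal cadherins read were below background: Dsc1 and Dsg1, which are epidermal, and Dsg2, the desmoglein of simple epithelia and heart. Dsg1 had 3 probe sets, all below. The cadherin genes form 1 cluster on chromosome 18 of assembly GRCr8, where Dsc2 spans chr18:11725466-11757591 and Dsc1, Dsg1 and Dsg2 follow. Of 10 other measured genes within 1 Mb of Dsc2, 3 were at or above background: B4galt6, Trappc8 and Rnf138, which lie beyond Dsg2. Their differences were -0.26, -0.23 and -0.30 with 6 arrays, and -0.15, -0.11 and 0.02 without CREB3L1 replicate 3. None passed the limma test in either setting.

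Dsc2 connects to the plaque, whose genes are given for their intervals rather than their lack of calls. All 6 plaque genes were at or above background on at least 1 probe set, and 0 of their 8 probe sets passed limma's test, adjusted or at an unadjusted p below 0.05, which is near the shares over all probe sets. Dsp, which encodes desmoplakin, the link from the plaque to keratin, had 13.86, 13.73 and 13.85 in CREB3L1 cells, against 13.92, 13.74 and 13.75 in untransfected cells. Its difference was 0.01 ± 0.07, with a 95% interval of -0.16 to 0.17 that does not reach the fall of Dsc2. A second Dsp probe set was below background. Jup, which encodes plakoglobin, averaged 13.00 ± 0.24 in CREB3L1 cells and 12.94 ± 0.16 in untransfected cells (SD, n = 3 each), and its interval was -0.31 to 0.42.

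Plakophilins are armadillo proteins that cluster the plaque. Pkp1, the plakophilin of stratified epithelia, averaged 13.79 ± 0.23 in CREB3L1 cells and 13.79 ± 0.02 in untransfected cells (SD, n = 3 each). Pkp2 gave 0.35 ± 0.30 with 6 arrays and 0.02 ± 0.11 without CREB3L1 replicate 3, which alone stood at 9.96 where the other 5 arrays lay at 8.80 to 9.13. Pkp3 gave 0.30 ± 0.15 and 0.17 ± 0.11. Pkp4, a relative found mainly at adherens junctions, gave -0.06 ± 0.14 and -0.28 ± 0.15 on its 2 probe sets, and -0.21 ± 0.05 and -0.39 ± 0.15 without CREB3L1 replicate 3. The groups overlapped for every plaque probe set above background.

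**Figure D2:**
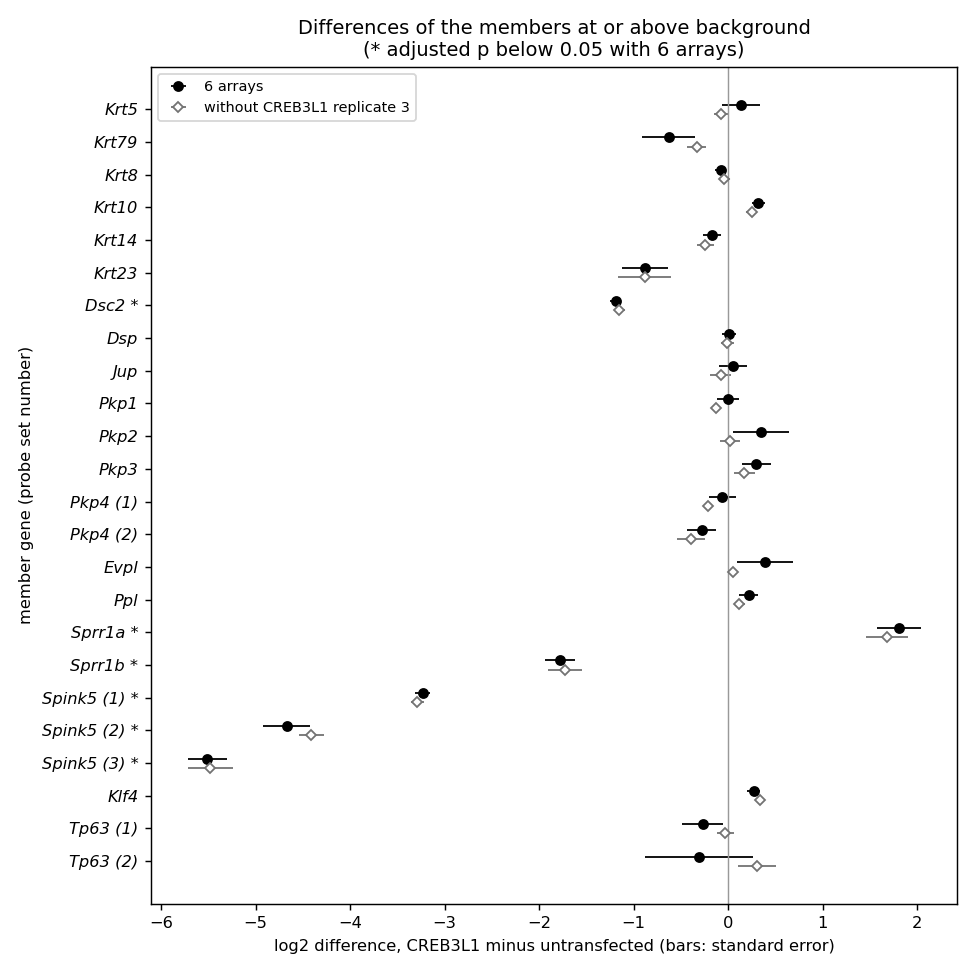
Log2 difference, CREB3L1 minus untransfected, with its standard error (horizontal axis) for the 24 member probe sets at or above background; black circles use all 6 arrays and open diamonds leave out CREB3L1 replicate 3. Stars mark an adjusted p below 0.05. Dsc2, Sprr1a, Sprr1b and Spink5 lie away from 0 in both settings, and Tp63 (2) changes sign between them, from -0.31 to 0.31.

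The small proline-rich genes Sprr1a and Sprr1b moved in opposite directions. Both encode cross-linked precursors of the cornified envelope, and both lie in the epidermal differentiation complex on chromosome 2 of GRCr8. Sprr1a is at chr2:180750709-180752625 and Sprr1b at chr2:180704457-180706355, 44.4 kb apart with Sprr3 between them. Their promoters are shown because the neighbours differ in direction. The sequences are RefSeq's, from assembly GRCr8, and run from 250 bases before the start to 50 after it, on the minus strand, at chr2:180752576-180752875 for Sprr1a and chr2:180706306-180706605 for Sprr1b. Capitals mark TGANTCA, a pattern that takes in the AP-1 site, and the TATA box TATAAA.
Sprr1a: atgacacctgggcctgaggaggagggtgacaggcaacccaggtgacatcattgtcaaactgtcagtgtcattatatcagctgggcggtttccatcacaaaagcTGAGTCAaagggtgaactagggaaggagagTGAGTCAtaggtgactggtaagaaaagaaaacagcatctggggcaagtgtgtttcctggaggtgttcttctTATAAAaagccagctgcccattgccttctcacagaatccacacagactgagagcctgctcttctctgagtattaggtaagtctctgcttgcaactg
Sprr1b: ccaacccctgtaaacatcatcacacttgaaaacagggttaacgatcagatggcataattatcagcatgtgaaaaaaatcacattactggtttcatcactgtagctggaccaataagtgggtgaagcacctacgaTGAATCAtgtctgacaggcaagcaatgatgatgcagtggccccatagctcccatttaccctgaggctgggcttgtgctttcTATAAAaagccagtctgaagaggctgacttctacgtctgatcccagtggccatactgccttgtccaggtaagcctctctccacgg

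Sprr1a holds TGANTCA at -147 and -117 from its start, both times as TGAGTCA, and Sprr1b holds it once, at -116, as TGAATCA. Both have a TATA box, at -46 and -35, within the longest stretch they share, TATAAAAAGCCAG. A global alignment matched 57.3% of its columns. TGANTCA on either strand was in 7.33% of all 33469 promoters of this length in the table and in 4 of the 36 member promoters it holds, which belong to 34 genes. The letters TATAAA, on either strand and at any position in the window, were in 14.2% and in 12 of 36. The cyclic AMP response element TGACGTCA and TGACGTGG, both known from CREB-type factors, were in 1.83% and 0.595% of all promoters and in 0 of the 36. A match of letters is a description of the window and not a binding site, and its absence says nothing of a factor.

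Sprr1a had 7.95, 8.20 and 8.47 in CREB3L1 cells, against 6.75, 6.43 and 6.01 in untransfected cells. Sprr1b had 6.63, 6.14 and 6.23 in CREB3L1 cells, against 7.91, 8.18 and 8.25 in untransfected cells. For both genes the groups did not overlap, and all values were above background. Sprr1a rose by 1.81 ± 0.23, which is 3.51-fold (adjusted p = 0.0330), and by 1.68 ± 0.22 without CREB3L1 replicate 3 (adjusted p = 0.0255). Sprr1b fell by 1.78 ± 0.16, which is 3.43-fold (adjusted p = 0.0124), and by 1.73 ± 0.18 without that array (adjusted p = 0.0126).

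Neither call held in all 13 alternatives. Sprr1a lost it in 7, with each of the other 5 arrays left out (adjusted p = 0.0701 to 0.150), after median centring (0.0517) and without moderation of the variances (0.177), and Sprr1b lost it in 4, without CREB3L1 replicate 2 (0.0604) or untransfected replicates 2 (0.0807) or 3 (0.0645) and without moderation (0.0981). The 2 genes are close relatives, RefSeq lists Sprr1b among the older names of Sprr1a, and the platform annotation assigns the probe sets to different gene IDs. How far each probe set reads the other transcript was not tested.

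Of the other envelope precursors, the plakin genes Evpl and Ppl were above background. Envoplakin and periplakin form the scaffold on which the envelope is laid down. Ppl had 11.79, 11.88 and 12.15 in CREB3L1 cells, against 11.68, 11.66 and 11.79 in untransfected cells, and its difference of 0.22 ± 0.10 did not pass the test (adjusted p = 0.639). Evpl had 8.02, 7.99 and 9.02 in CREB3L1 cells, against 7.97, 7.91 and 7.99 in untransfected cells. Only CREB3L1 replicate 3 stood higher, and without it the difference was 0.05 ± 0.04, against 0.39 ± 0.30 with it. Ivl (involucrin), Sprr2d, Sprr3 and Cnfn (cornifelin) were below background in both groups. So was Loricrin, at 1.76 ± 0.03 in CREB3L1 cells and 1.76 ± 0.03 in untransfected cells (SD, n = 3 each). Tgm1 and Tgm3, the transglutaminases that cross-link these precursors, were also below background.

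Spink5 fell on all 3 of its probe sets. It encodes LEKTI, an inhibitor with many domains that restrains kallikrein proteases of the epidermis, and its loss causes Netherton syndrome in humans. On the first probe set it had 2.67, 2.62 and 2.82 in CREB3L1 cells, against 6.01, 5.80 and 5.99 in untransfected cells. On the second it had 3.32, 3.24 and 2.50 in CREB3L1 cells, against 7.52, 7.62 and 7.93 in untransfected cells. On the third it had 3.50, 3.46 and 3.39 in CREB3L1 cells, against 8.85, 8.60 and 9.43 in untransfected cells. Every CREB3L1 value was below the background level and every untransfected value above it.

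Since the CREB3L1 values give only a bound, folds were taken against the level of 5. Spink5 was at least 1.91-fold, 6.46-fold and 15.6-fold lower on the 3 probe sets (adjusted p = 1.76e-04, 0.00268 and 0.00105). The measured log2 differences were -3.23 ± 0.08, -4.67 ± 0.25 and -5.51 ± 0.21, and -3.29, -4.41 and -5.48 without CREB3L1 replicate 3. All 3 calls held in all 13 alternatives.

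**Figure D3:**
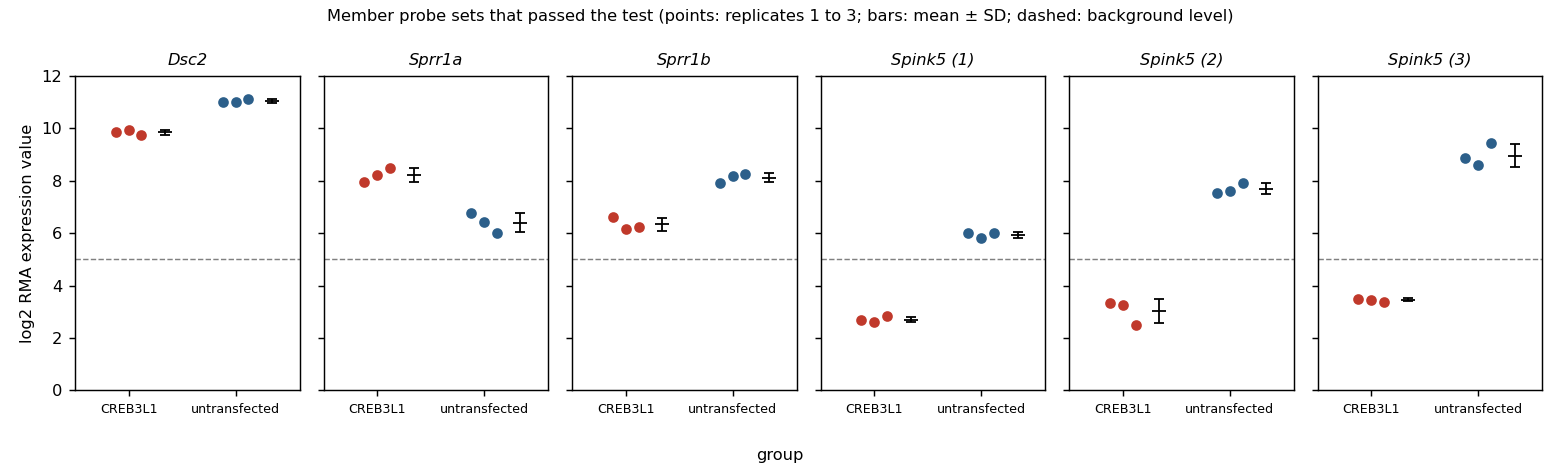
Log2 expression value (vertical axis) on each array for the 6 member probe sets that passed the test, with CREB3L1 left and untransfected right in each panel; points are the 3 replicates, bars the mean ± SD, and the dashed line the background level of 5. In CREB3L1 cells Sprr1a is higher, Dsc2 and Sprr1b are lower, and all 3 Spink5 probe sets lie below the dashed line.

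Spink5 is on chromosome 18 of GRCr8 at chr18:36515347-36584038, 24.8 Mb from Dsc2 and outside the cadherin cluster. Of 6 other measured genes within 1 Mb of it, 1 was at or above background, Dpysl3, at 9.47 in CREB3L1 cells and 9.39 in untransfected cells, a difference of 0.09 that did not pass the test. The Spink5 promoter is shown because this gene had the greatest measured difference among the members. It is RefSeq's sequence on the plus strand, at chr18:36515097-36515396, with matches to TATAAA on either strand in capitals.
Spink5: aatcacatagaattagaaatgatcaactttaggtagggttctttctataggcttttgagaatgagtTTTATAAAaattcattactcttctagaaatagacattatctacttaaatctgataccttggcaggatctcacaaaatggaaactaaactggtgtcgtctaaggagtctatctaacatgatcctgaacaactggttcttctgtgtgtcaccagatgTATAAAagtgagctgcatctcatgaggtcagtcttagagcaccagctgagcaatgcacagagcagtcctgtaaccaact

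It holds TATAAA at -29 and again at -182, where it overlaps a match on the other strand at -184, and none of the other patterns named above. The Dsc2 promoter in the same table holds none of them.

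Klf4 and Tp63 regulate these genes in stratified epithelia: Klf4 promotes the barrier and the late envelope genes, and Tp63 maintains basal cells and drives Krt5 and Krt14. Klf4 had 13.78, 13.72 and 13.54 in CREB3L1 cells, against 13.48, 13.37 and 13.38 in untransfected cells. The groups did not overlap, as for 13.8% of all probe sets above background in this direction. The difference of 0.27 ± 0.07 did not pass the test (adjusted p = 0.256). Without CREB3L1 replicate 3 Klf4 rose by 0.34 ± 0.05 (adjusted p = 0.0347). Tp63 was read by 2 probe sets, and on both CREB3L1 replicate 3 was the lowest array. The first gave -0.27 ± 0.22 with 6 arrays and -0.03 ± 0.09 without it, and the second -0.31 ± 0.57 and 0.31 ± 0.20. No Tp63 difference passed the test.

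Related epithelial genes outside the selection were taken as 4 lists, with 1 probe set per gene, the one with the highest mean. Of 130 measured genes in all, 0 rose and 5 fell, while over all genes 0.577% rose and 1.52% fell. Without CREB3L1 replicate 3, 4 rose and 9 fell, against 2.02% and 3.70% of all genes. At limma's unadjusted p below 0.05 with 6 arrays, barrier proteins and proteases had 3 higher and 6 lower genes and epidermal regulators 1 higher and 5 lower, while 6.05% of all genes were higher and 7.99% lower.

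Of 42 measured barrier proteins and proteases, 20 were at or above background, 0 rose and 2 fell, with a median difference of -0.01. S100a14, a calcium-binding protein, had 12.93, 12.80 and 12.67 in CREB3L1 cells, against 13.86, 13.81 and 13.91 in untransfected cells, and fell by 1.06 ± 0.07 (adjusted p = 0.00609). A second S100a14 probe set fell by 1.08 ± 0.12 (adjusted p = 0.0238). Tgm2, the widely expressed tissue transglutaminase, had 8.18, 8.15 and 8.42 in CREB3L1 cells, against 9.78, 9.75 and 10.10 in untransfected cells, and fell by 1.63 ± 0.12 (adjusted p = 0.00750). A second Tgm2 probe set was below background in both groups. Without CREB3L1 replicate 3, Klk10, Klk6 and Perp rose and S100a14, Tgm2, Anxa8 and Cstb fell. Cdsn, which encodes corneodesmosin of the modified desmosomes in the cornified layer, lay at 2.20 ± 0.02 in CREB3L1 cells and 2.21 ± 0.04 in untransfected cells (SD, n = 3 each).

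Of 39 measured epidermal regulators, 22 were at or above background, 0 rose and 3 fell, with a median of -0.03. Notch1, a receptor that promotes keratinocyte differentiation, had 6.50, 6.36 and 5.84 in CREB3L1 cells, against 8.06, 7.72 and 8.08 in untransfected cells, and fell by 1.72 ± 0.20 (adjusted p = 0.0277). Klf5, a factor of proliferating epithelial cells, fell by 0.51 ± 0.07 (adjusted p = 0.0371), and Hopx, a homeodomain-like cofactor, by 0.45 ± 0.05 (adjusted p = 0.0303). Each of the 3 genes lost its call in 6 of the 13 alternatives, with adjusted p-values of up to 0.160 for Notch1, 0.178 for Klf5 and 0.155 for Hopx. Notch1 lost it without any 1 array other than CREB3L1 replicate 3, Klf5 without CREB3L1 replicate 1 or 2 or untransfected replicate 2 or 3, and Hopx without CREB3L1 replicate 2 or any 1 untransfected array. A second Notch1 probe set was below background, and a second Klf5 probe set gave -0.69 ± 0.11 (adjusted p = 0.0648). Without CREB3L1 replicate 3 the same 3 genes fell, and Jun (0.34 ± 0.05, adjusted p = 0.0407) and Perp, also in the barrier list, rose.

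The partners of keratin and the hemidesmosome genes gave no call by limma: 0 of 27 measured genes passed, with 0 higher and 2 lower at an unadjusted p below 0.05 and a median of 0.06, near the shares over all genes. The epithelial regulator Trim29 (-0.54 ± 0.08, adjusted p = 0.0581) and the muscle filament gene Des (-1.11 ± 0.27, adjusted p = 0.203) had the smallest p, and Des averaged below background in CREB3L1 cells. Both fell without CREB3L1 replicate 3 (adjusted p = 0.0462 and 0.0442). Other junction genes gave 0 of 23 by limma as well, with 2 higher and 0 lower at the unadjusted threshold, again near those shares, and a median of 0.01. The smallest p belonged to the gap junction gene Gja1 (0.35 ± 0.08, adjusted p = 0.155) and the tight junction scaffold gene Tjp1 (0.25 ± 0.09, adjusted p = 0.401).

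**Figure D4:**
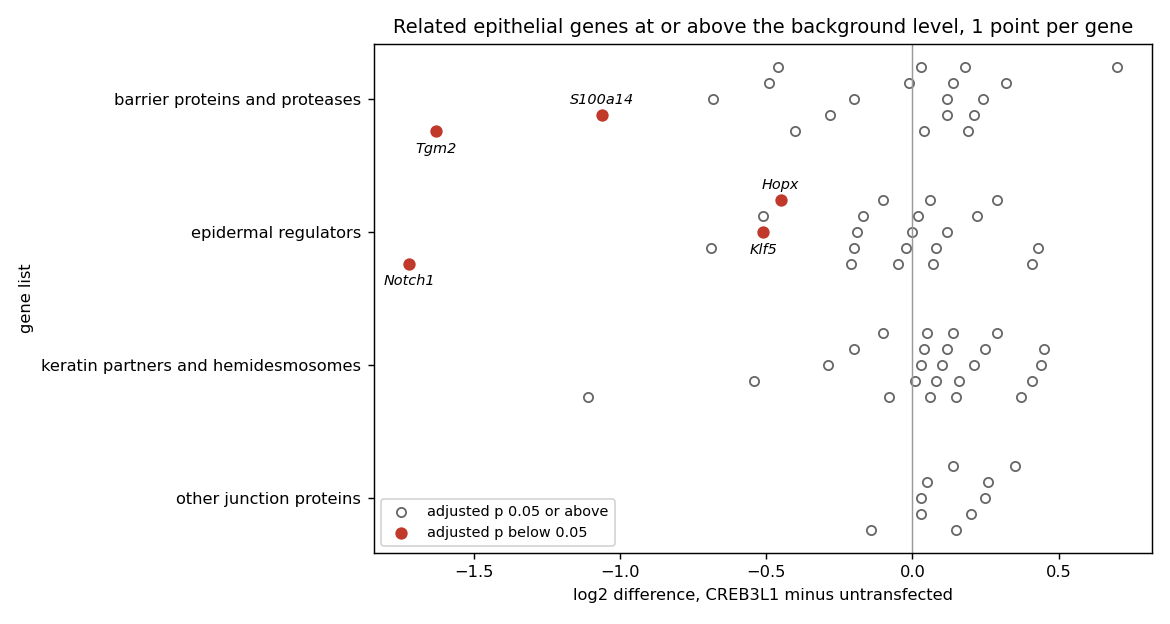
Log2 difference, CREB3L1 minus untransfected (horizontal axis), for the related genes at or above background in the 4 lists, 1 point per gene and spread vertically only to separate points. Filled points passed the test: Tgm2, S100a14, Notch1, Klf5 and Hopx, all lower in CREB3L1 cells.

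The labelled cell type was set against marker lists. Of 15 basal and myoepithelial genes measured, 7 were at or above background, among them Krt5, Krt14, Tp63, Itga6 and Acta2, while Myh11, Cnn1 and Oxtr were below. Of 18 luminal genes, 2 were, Krt8 and Gata3, while Epcam and Cdh1 lay at 2.71 and 3.10 in CREB3L1 cells and 2.73 and 3.10 in untransfected cells. The 14 measured genes of stratified and cornifying epithelium are all members described above, so this list is no separate check. Of them, 5 were at or above background, 1 rose (Sprr1a) and 1 fell (Sprr1b). Markers of other cells were read in 3 of 12 fibroblast genes (Vim, Col3a1 and Twist1), 1 of 10 leukocyte genes (Csf1r), 0 of 7 endothelial genes and 2 of 9 adipocyte genes. In none of the basal, luminal, fibroblast, leukocyte or endothelial lists did a gene pass the limma test. At limma's unadjusted p below 0.05 they held 1 gene, a lower one in the endothelial list, whose genes were all below background. Over all genes 0.577% rose and 1.52% fell, and 6.05% were higher and 7.99% lower at the unadjusted threshold. Most genes of these lists were below background, so the lack of calls does not show that the cell type was unchanged.

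Of the 9 adipocyte genes, 2 fell and the other 7 were below background in both groups, with a median difference of -0.01 over the list. Its summed level, carried by those 2 genes, as log2 of the summed signals, was 8.31 to 8.48 in CREB3L1 cells and 10.34 to 10.65 in untransfected cells. They were Fabp4, a fatty acid binding protein, and Pparg, a nuclear receptor. Fabp4 averaged 2.88 ± 0.20 in CREB3L1 cells and 9.05 ± 0.22 in untransfected cells (SD, n = 3 each), with a limma adjusted p of 1.76e-04. Pparg averaged 8.24 ± 0.10 in CREB3L1 cells and 9.71 ± 0.16 in untransfected cells (SD, n = 3 each), with a limma adjusted p of 0.00489. The defining adipocyte markers Adipoq, Lep and Plin1 were below background in both groups.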

How the data were processed

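RNA on 6 Affymetrix 3' arrays was summarised to deposited log2 values by the authors, and the submitters' processing notes name RMA and Partek 6.6. No source used here states the log base, which was taken as log2 from the range of the values. Detection calls were not used, and 3 arrays a group limit the precision. Biotin labelling used a 3' kit, per the labels' protocols.

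Of 31099 probe sets, 57 controls were set aside. Gene symbols are those of the platform annotation in GEO, parts of which may be outdated. All 46 member genes matched RefSeq (GRCr8) by gene ID with the same symbol, and 34 had 36 promoters in its table. Groups came from the transfection label, replicate numbers follow accession order, and nothing in the labels pairs arrays. The fit was limma 3.58.1 in R 4.3.3 (1 mean per group, eBayes without trend) on all 31042 probe sets, and was tested on simulated data. Members, lists, the background level and the tests were chosen with earlier results of these data known. Every member at or above background was named with values, and up to 6 called genes per related list, or the 2 with the smallest p. Genome neighbours within 1 Mb were added after values were seen.

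Alternatives were quantile normalisation, median centring, leaving out dim probe sets, a mean-variance trend, robust eBayes, no moderation, array weights, each array left out, the mean of a gene's probe sets, and levels of 4 or 6.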

Additional observations from a re-analysis of the deposited data

How the results depend on the processing

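The call of Dsc2 and those of the 3 Spink5 probe sets kept their direction and stayed below the threshold in all 13 alternatives, and no called member changed sign in any of them. The count of members that rose (1 with all arrays) was 0 after centring on array medians and 0 without moderation (3 each at limma's or the ordinary unadjusted p below 0.05), 3 with array weights, and 0 to 2 with 1 array left out. It was 2 when CREB3L1 replicate 3 was dropped and 0 when any other array was. The count that fell was 4 or 5 throughout. Member genes called (4) numbered 3 after centring on array medians, 2 without moderation, 6 with array weights, and 2 to 5 with 1 array left out. Called related genes (5) numbered 3 with a mean-variance trend, 0 without moderation (18 at an unadjusted p below 0.05) and 16 with array weights. With 1 array left out they numbered 2 to 13, the 13 without CREB3L1 replicate 3. Calls over the whole array moved as well. With 6 arrays 0.577% of all genes rose and 1.52% fell, and without CREB3L1 replicate 3 these were 2.02% and 3.70%. For the other alternatives the shares over all genes are not given, so the member and related counts cannot be read as particular to these genes. Array weights gave that array 0.17, and Klf4 (adjusted p = 0.0155) and Krt10 (0.0343) rose there. S100a14 (0.0587) and Tgm2 (0.0715) lost their call only without moderation. With a level of 4 or 6, 25 or 23 member probe sets were at or above it. No paired analysis was possible because the labels give the groups no shared replicate numbers.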
